A study of Mus musculus with 6 samples.

Results

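Iron storage, import and export in macrophages rest on a small set of genes, and 9 of them were followed here across the control and stimulated cultures: Fth1 and Ftl1 (storage), Ncoa4 (ferritin turnover), Slc40a1 (export), Tfrc (import), Slc11a1 and Slc11a2 (transport out of vesicles), and Ireb2 and Aco1 (iron sensing). They were picked by gene symbol for their roles, 9 of the 24394 symbols in the files, with earlier results of these libraries known, and no value entered the rule. Bone marrow-derived macrophages (BMMs) of C57BL/6 mice at postnatal day 28 were grown from isolated marrow monocytes with macrophage colony-stimulating factor at 50 ng/ml for 7 days. RNA was sequenced from 3 cultures without further treatment (control) and from 3 cultures given 5 cartilage fragments per macrophage for 24 h (stimulated), and marrow and cartilage came from the same mice. No gene was deleted or added in either group, and no source ties a culture to a single mouse, so the spread between libraries may be technical. The Methods give male mice, while Xist lay between 19.8 and 23.6 FPKM in the 6 libraries and Ddx3y, Eif2s3y, Kdm5d and Uty of the Y chromosome were listed at 0 in all of them.

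Macrophages recycle the iron of the body, since they take up spent red cells and return the metal to plasma. Iron that enters a cell is stored inside ferritin, a shell built of heavy (Fth1) and light (Ftl1) chains, leaves through ferroportin (Slc40a1), and is taken up bound to transferrin through the transferrin receptor (Tfrc). The iron regulatory proteins Aco1 (IRP1) and Ireb2 (IRP2) bind hairpins in messenger RNA, called iron-responsive elements, when the cell is short of iron. Bound near the start of a message they block translation, and bound behind the coding part of Tfrc they protect the message from decay. An element near the start of a message acts on translation, which RNA-seq does not measure.

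The elements are shown because they are the sites that Aco1 and Ireb2 bind, in those messages where a strict search found 1. The transcripts of GENCODE M21 on GRCm38 (the build mm10 of the files) were searched on the sense strand for a bulged C, any 5 bases, the loop CAGTGN and any 5 bases, where the 5 bases before the loop pair with the 5 after it, G-T pairs allowed. Of 21901 protein-coding genes 294 (1.34%) held such a match in a transcript, and 4 of the 9 genes did, with 7 elements. Each element is written 5′ to 3′ on the strand of its gene in 30 bases, and capitals mark the loop. Fth1 on chromosome 19 (plus strand), Ftl1 on chromosome 7 and Slc40a1 on chromosome 1 (both minus strand) held 1 element each in the 5′ UTR. In Tfrc on chromosome 16 (plus strand) the search found 4 in the 3′ UTR, and elements of a looser form would be missed in any message.
Fth1, 5′ UTR, chr19:9982732-9982761: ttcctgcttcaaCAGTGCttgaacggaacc
Ftl1, 5′ UTR, chr7:45459778-45459807: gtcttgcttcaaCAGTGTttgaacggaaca
Slc40a1, 5′ UTR, chr1:45925464-45925493: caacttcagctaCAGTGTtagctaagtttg
Tfrc, 3′ UTR, chr16:32631219-32631248: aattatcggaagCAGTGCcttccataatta
Tfrc, 3′ UTR, chr16:32631598-32631627: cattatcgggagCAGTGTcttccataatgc
Tfrc, 3′ UTR, chr16:32631663-32631692: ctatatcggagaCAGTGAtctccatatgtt
Tfrc, 3′ UTR, chr16:32631710-32631739: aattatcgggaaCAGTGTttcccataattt
These letters were not found in the transcripts of Ncoa4, Slc11a1, Slc11a2, Ireb2 or Aco1. A form of the Slc11a2 message is known to carry an element with a further bulge in its stem, which a search for an unbroken stem does not cover. The core of the antioxidant response element, TGACNNNGC on either strand, was also looked for in promoters of 300 bases around the gene start (RefSeq, GRCm38.p6). It was present in 12.4% of 32851 promoters and in 1 of the 11 promoters listed for 7 of the genes, an Ncoa4 promoter. Promoters of Slc40a1 and Slc11a2 were not analysed here.

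Levels are given in FPKM, a unit that corrects fragment numbers for transcript length and for library depth, so they can be set side by side between genes. The files list known transcripts, which carry a gene symbol, and transcripts assembled anew in 1 library, which carry no symbol but share the locus of a gene. A gene's FPKM is the sum over both kinds of line. For each gene the result on lines that carry the symbol alone is given where the sums differ. Fragment numbers were also estimated from the listed coverage and scaled to equal depth, and the differences between groups are given in FPKM first and in scaled fragments second. The libraries came to between 699192 and 776322 estimated fragments, fewer than the reads that the Methods state. The precision of a weakly expressed gene is limited by this depth.

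The ferritin messages were by far the most abundant of the 9. Ftl1 averaged 26293 ± 841 FPKM in control and 27884 ± 904 FPKM in stimulated BMMs (SD, n = 3 each). Fth1 averaged 22258 ± 3168 and 27379 ± 7618 FPKM. Together they held 3.42%, 3.49% and 3.55% of the fragments of the control libraries and 3.73%, 3.74% and 3.76% of those of the stimulated libraries. By fragments Ftl1 ranked 4 among all genes in every library, and Fth1 ranked 5 or 6.

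The next levels lay far lower. In control BMMs Slc11a1 followed at 292 ± 8.55 FPKM, then Tfrc at 174 ± 15.4, Slc40a1 at 139 ± 20.3, Ncoa4 at 110.1 ± 10.9, Aco1 at 21.8 ± 1.20, Slc11a2 at 20.03 ± 2.95 and Ireb2 at 10.9 ± 2.50 (SD, n = 3). Neighbours in this order whose libraries overlapped were Ftl1 and Fth1, Slc40a1 and Ncoa4, and Aco1 and Slc11a2. In stimulated BMMs Tfrc and Slc40a1 overlapped as well, and Slc11a2 stood before Aco1, again with overlap. The plot of FPKM by library shows how each gene varied.

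**Figure D1:**
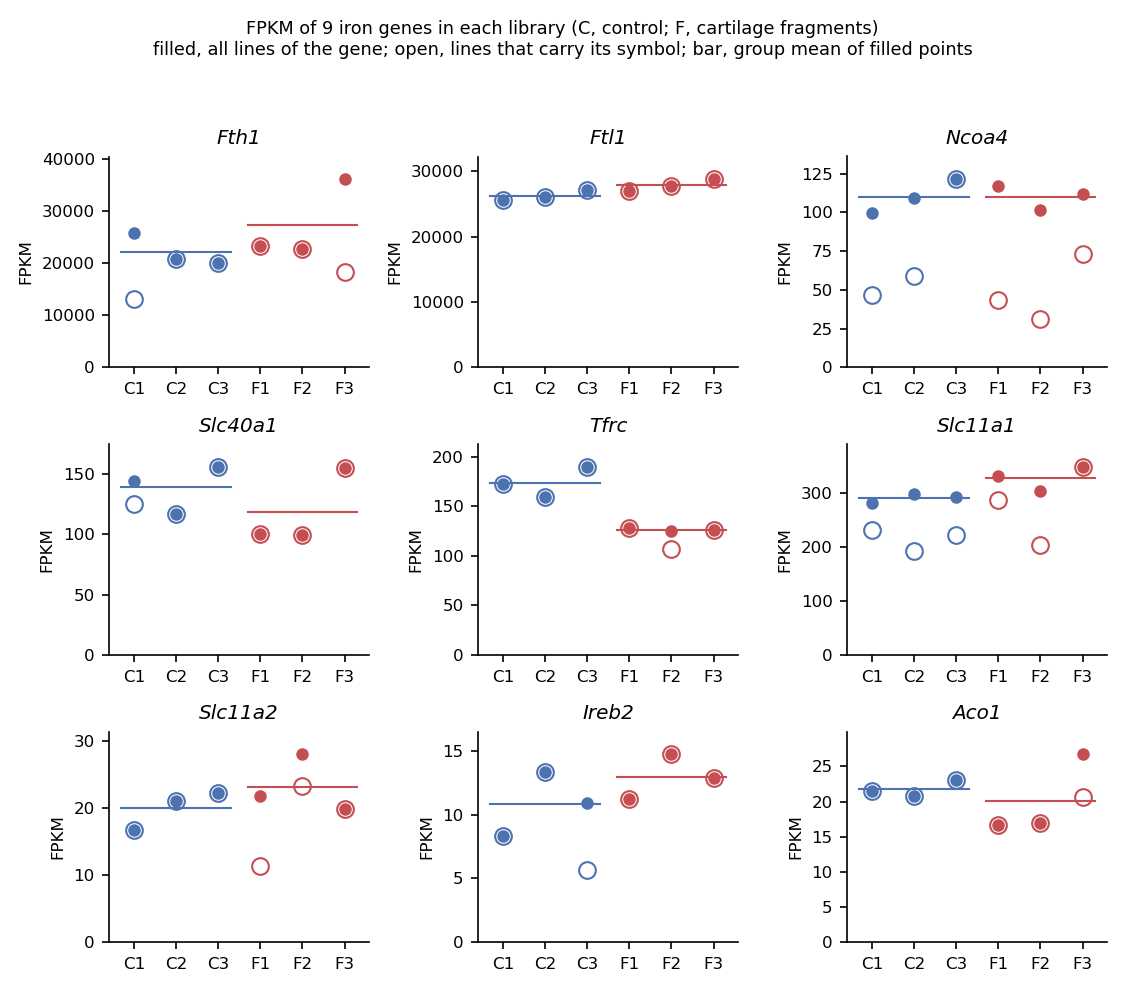
FPKM (y axis, from 0, a scale of its own in each panel) of the 9 genes in the 3 control libraries (C1 to C3, blue) and the 3 stimulated libraries (F1 to F3, red). Filled points sum all lines of a gene, open circles only those with its symbol, and bars are group means of the filled points. Tfrc is lower in every stimulated library, and Slc11a1 is higher in the filled points, while its open circles overlap. The open circles fall away from the filled points for Fth1 in C1 and F3 and for Ncoa4 and Slc11a1 in 5 libraries each, among others.

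Over all 10393 genes tested, the limma comparison of FPKM called 0.366% changed at an adjusted p under 0.05, 0.308% higher and 0.0577% lower in stimulated BMMs. None of the 9 genes passed in FPKM (limma, 0 of 9), while 3 had an unadjusted p under 0.05, namely Tfrc, Ftl1 and Slc11a1, beside 9.19% of all tested genes. In scaled fragments, where 2.51% of all genes were called (1.65% higher and 0.866% lower), Fth1 rose and Tfrc fell, and on fragments of lines with the symbol neither passed. An unadjusted p under 0.05 was found in scaled fragments for 4 of the 9, with Ftl1 and Slc11a1 added, beside 11.6% of all tested genes. The control and stimulated libraries did not overlap for Slc11a1 (higher) and Tfrc (lower) in FPKM, beside 15.9% of all genes (9.04% higher, 6.89% lower). In scaled fragments Fth1 and Slc11a1 were separated upwards and Tfrc downwards, beside 16.5% of all genes (9.19% higher, 7.35% lower). The median log2 difference of the 9 genes was 0.085 in FPKM, and that of all tested genes was 0.0037. With 3 libraries a group, 0.1 is the smallest p of an exact two-sided permutation test on a single gene.

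**Figure D2:**
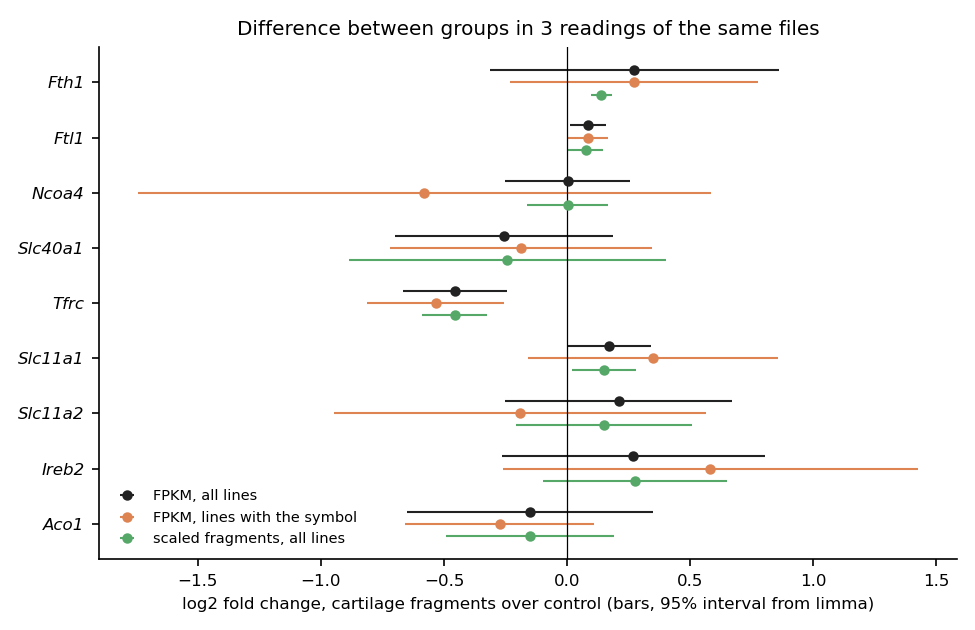
Log2 fold change of stimulated over control BMMs (x axis) for each gene in FPKM over all lines (black), FPKM over lines with the symbol (orange) and scaled fragments over all lines (green), with 95% intervals from limma. Tfrc lies below 0 in all 3 readings, the interval of Fth1 clears 0 only in scaled fragments, and the estimate of Ncoa4 runs from 0.00 to -0.58.

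Ferritin heavy chain, Fth1 (chr19:9980600-9985111), oxidises the iron that enters the shell. Its FPKM were 25899.5, 20738 and 20135 in the control libraries and 23311, 22659 and 36167 in the stimulated libraries. The groups overlapped, since control 1 lay above stimulated 1 and 2, and stimulated 3 stood apart from the other libraries. In those libraries, control 1 and stimulated 3, part of the gene was listed on an assembled line, 607 bp long with 12717 FPKM in control 1 and 348 bp long with 17842 FPKM in stimulated 3. The lines with the symbol alone gave 13182, 20738 and 20135 FPKM against 23311, 22659 and 18326. The log2 difference in FPKM was 0.27 (SE 0.23, limma, adjusted p = 0.771), and over lines with the symbol it was also 0.27 (SE 0.20, adjusted p = 0.797).

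Counted as fragments, the same gene was steadier. Scaled fragments of Fth1 were 10945, 11248 and 10950.4 in control and 12575, 12205 and 11726 in stimulated BMMs, and the groups did not overlap. This was a rise of 1.10-fold (log2 0.14, SE 0.021, limma, adjusted p = 0.000136). It passed with any 1 library left out, with a log2 difference of 0.12 to 0.17 and an adjusted p of 9.27e-06 to 0.00767. On fragments of lines with the symbol the call was lost (log2 0.26, SE 0.20, adjusted p = 0.803). In the FPKM alternatives that keep all libraries its adjusted p lay between 0.748 and 0.815. The coding transcript of Fth1 carried the status LOWDATA in every library except control 1, in which no line had a status other than OK.

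**Figure D3:**
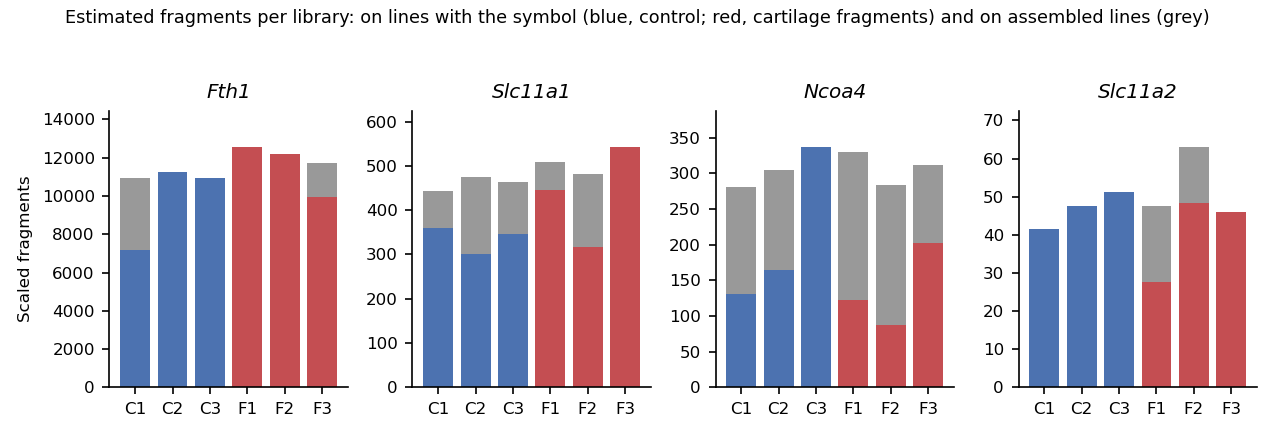
Scaled fragments (y axis, from 0) of Fth1, Slc11a1, Ncoa4 and Slc11a2 in each library (C1 to C3, control; F1 to F3, stimulated), stacked as lines that carry the gene symbol (blue or red) and assembled lines without one (grey). The grey part comes and goes between libraries of 1 group, and for Fth1 the full bars of F1 to F3 all stand above those of C1 to C3.

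Ferritin light chain, Ftl1 (chr7:45457944-45459886), helps iron to settle in the core of the shell. It had 1 line in every library, with 25579, 26079.6 and 27221 FPKM in control and 27019.8, 27808 and 28824 FPKM in stimulated BMMs. Control 3 lay above stimulated 1, and otherwise the stimulated libraries were higher. The log2 difference was 0.085 (SE 0.031, limma, adjusted p = 0.448) in FPKM and 0.075 (SE 0.030, adjusted p = 0.390) in scaled fragments. The latter passed without control 3 (log2 0.10, adjusted p = 0.0486).

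The ratio of Fth1 to Ftl1 message gives the makeup of the shell as far as RNA can. In FPKM it was 1.01, 0.795 and 0.740 in control and 0.863, 0.815 and 1.25 in stimulated BMMs, highest in the 2 libraries with an assembled Fth1 line. The log2 difference of the means of log ratios was 0.19 (exact permutation test, two-sided, p = 0.5, 0.75 after Benjamini-Hochberg adjustment over 3 ratios). From fragments per kilobase the ratio was 0.774 ± 0.0296 in control and 0.810 ± 0.0559 in stimulated BMMs (SD, n = 3; log2 difference 0.06, exact permutation p = 0.4). Without stimulated 3 the difference in FPKM was -0.0050.

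Ncoa4 (chr14:32159887-32179855) encodes the receptor that carries ferritin to the lysosome, where its iron is set free. Over all lines it had 99.7, 109 and 121 FPKM in control and 116.8, 101 and 112 FPKM in stimulated BMMs. The groups overlapped throughout, with a log2 difference of 0.00 (SE 0.11, 95% interval -0.25 to 0.25, limma, adjusted p = 0.998). In scaled fragments the log2 difference was also 0.00 (SE 0.08, limma, adjusted p = 0.998). The lines with the symbol gave a different picture, with 46.9, 58.9 and 121 FPKM against 43.7, 31.4 and 73.05. Assembled lines of 3976 to 4046 bp held the remainder in 5 libraries and were missing in control 3. On the symbol alone the log2 difference was -0.58 (SE 0.47, adjusted p = 0.797).

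Ferroportin, Slc40a1 (chr1:45908070-45925594), is the exporter of iron. It reached 144, 117 and 156 FPKM in control and 100.1, 99.2 and 155 FPKM in stimulated BMMs. Stimulated 1 and 2 lay below all control libraries and stimulated 3 lay beside the highest of them. The log2 difference was -0.26 (SE 0.19, limma, adjusted p = 0.736) in FPKM and -0.24 (SE 0.24, adjusted p = 0.805) in scaled fragments. Without stimulated 3 the scaled fragments gave -0.46 (adjusted p = 0.0143) and the FPKM -0.47 (adjusted p = 0.357), so that library decided the call in fragments. Over the leave-outs of fragments the adjusted p ran from 0.0143 to 0.931. Of the FPKM in control 1, 19.4 stood on an assembled line. Over lines with the symbol control 1 had 125 FPKM and the log2 difference was -0.19 (SE 0.22, adjusted p = 0.806).

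The transferrin receptor, Tfrc (chr16:32608896-32632794), was the gene of the 9 with the clearest difference. Its FPKM were 172, 159 and 189.9 in control and 128, 125 and 126 in stimulated BMMs. The stimulated libraries lay close together, all below the lowest control. The mean was 0.727 times that of control (log2 -0.46, SE 0.09, 95% interval -0.67 to -0.25, unadjusted p = 0.00104), and this missed the threshold after adjustment over all genes (limma, adjusted p = 0.123). The adjusted p ran from 0.0911 to 0.506 in the FPKM alternatives with all libraries and from 0.138 to 0.320 with 1 library left out.

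Scaled fragments of Tfrc, 602, 555 and 663 in control and 446, 436 and 439.9 in stimulated BMMs, gave the same size of difference with a smaller error. The log2 difference was -0.46 (SE 0.06), and the fall passed (limma, adjusted p = 1.11e-05). It also passed with any 1 library left out, with a log2 difference of -0.52 to -0.39 and an adjusted p of 6.95e-05 to 0.000851. Stimulated 2 had 18.5 FPKM on an assembled line. Over lines with the symbol the log2 difference was -0.53 in FPKM (SE 0.11, adjusted p = 0.348) and -0.53 in scaled fragments (SE 0.10, adjusted p = 0.245), so the call was lost there. Tfrc stands on the study's own list of changed genes, drawn from these libraries, so the present values are not independent evidence of its direction. The strict search found the 4 elements printed above in the Tfrc message. It found an element near the start in 3 messages, Fth1 (higher in fragments), Ftl1 and Slc40a1 (neither past the threshold with all libraries).

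Slc11a1 (NRAMP1, chr1:74375203-74386051) moves divalent metals out of the phagosome of macrophages. It was listed at 283, 299 and 294 FPKM in control and 333, 305 and 349.97 FPKM in stimulated BMMs. All stimulated libraries lay above all controls, by a narrow margin between control 2 and stimulated 2. The log2 difference was 0.17 (SE 0.07, unadjusted p = 0.0481, limma, adjusted p = 0.538) in FPKM and 0.15 (SE 0.06, adjusted p = 0.326) in scaled fragments. On the lines with the symbol the groups overlapped, with 232, 193 and 222 FPKM against 287, 204 and 349.97. The log2 difference on those lines was 0.35 (SE 0.21, limma, adjusted p = 0.797). Assembled lines of 2100 to 2430 bp held 45.1 to 106 FPKM in 5 libraries and were missing in stimulated 3.

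Its relative Slc11a2 (DMT1, chr15:100387900-100423055) passes iron from endosomes to the cytosol after uptake by transferrin. The levels were 16.7, 21.1 and 22.3 FPKM in control and 21.8, 28.1 and 19.9 FPKM in stimulated BMMs, with overlap. They rest on 43.4 to 61.5 estimated fragments per library. The log2 difference was 0.21 (SE 0.20, limma, adjusted p = 0.797) over all lines and -0.19 (SE 0.31, adjusted p = 0.855) over lines with the symbol, on which stimulated 1 held 11.4 FPKM. In scaled fragments over all lines the difference was 0.15 (SE 0.18, limma, adjusted p = 0.826). The ratio of Slc11a1 to Slc11a2 was 14.8 ± 1.93 in control and 14.6 ± 3.42 in stimulated BMMs (SD, n = 3; log2 difference -0.04, exact permutation p = 1, adjusted 1).

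Of the sensors of iron, Ireb2 had the lowest level of the 9, and Aco1 overlapped Slc11a2 in both groups. Ireb2 (chr9:54863755-54912534), which encodes IRP2, a protein that is broken down when iron is plentiful, had 8.35, 13.3 and 10.9 FPKM in control and 11.2, 14.7 and 12.9 FPKM in stimulated BMMs. Control 2 lay above stimulated 1 and 3, and the log2 difference was 0.27 (SE 0.23, limma, adjusted p = 0.771). In scaled fragments it was 0.28 (SE 0.18, limma, adjusted p = 0.632). Each value rests on 36.3 to 59.5 estimated fragments. In control 3, 5.25 FPKM stood on an assembled line, and the lines with the symbol had 5.63 FPKM there. On the symbol alone the log2 difference was 0.58 (SE 0.34, adjusted p = 0.797), and with 1 library left out of the sums over all lines it lay between 0.095 and 0.43.

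Aco1 (chr4:40143265-40199009), which encodes IRP1, works as an aconitase while it holds an iron-sulfur cluster and binds RNA without it. Its FPKM were 21.5, 20.8 and 23.1 in control and 16.6, 17.0002 and 26.8 in stimulated BMMs. Stimulated 1 and 2 were the lowest libraries and stimulated 3 the highest (log2 difference -0.15, SE 0.22, limma, adjusted p = 0.868). In scaled fragments the log2 difference was also -0.15 (SE 0.17, limma, adjusted p = 0.812). In stimulated 3, 6.12 FPKM stood on an assembled line, and over lines with the symbol it had 20.6 FPKM, so that every stimulated library lay below every control (log2 difference -0.27, SE 0.16, adjusted p = 0.797). The ratio of Ireb2 to Aco1 was 0.5005 ± 0.129 in control and 0.675 ± 0.192 in stimulated BMMs (SD, n = 3; log2 difference 0.42, exact permutation p = 0.2, adjusted 0.6). That difference was 0.86 on lines with the symbol (exact permutation p = 0.2) and 0.22 to 0.64 with 1 library left out.

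The spread between libraries of 1 group differed among the genes. In scaled fragments the coefficient of variation in control BMMs was 1.57% for Fth1, 3.18% for Ftl1, 3.32% for Slc11a1 and 8.89% for Tfrc, where counting alone would give 0.941%, 0.812%, 4.61% and 4.02%. For Slc11a2 and Aco1 it was 10.6% and 5.51%, below the 14.5% and 12.1% of counting, and for Ireb2 it was 23.2% beside 14.8%. In stimulated BMMs Slc40a1 and Aco1 varied most, by 27.2% and 28.4%, where counting would give 6.09% and 13.0%. For both, stimulated 3 was the library that stood above stimulated 1 and 2. Over all genes compared, stimulated 3 also lay nearer to the controls. The mean squared difference in fragments from a control, relative to that of counting, was 2.00 to 2.10 for stimulated 3. For stimulated 1 and 2 it was 2.29 to 2.51.

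Genes with the most similar course over the 6 libraries were sought among 3408 genes averaging 20 FPKM or more, by the root mean square difference of centred log2 FPKM. For Tfrc these were Abcg1 (0.056), an exporter of cholesterol, Mmp12 (0.061), the macrophage elastase, and Atp6v0d2 (0.065), a subunit of the proton pump of vesicles. Each of them is, like Tfrc, on the study's own list as lower. That list was drawn from these libraries, so the likeness is not independent evidence. Nearest to Slc40a1 were Shkbp1 (0.068), Usp19 (0.075) and Leng8 (0.10), and nearest to Fth1 were Exosc5 (0.053), Tmem128 (0.060) and Etfb (0.080). For Fth1 the course compared is that of the FPKM, with its high values in control 1 and stimulated 3.

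Around the 9 genes, 49 other genes of iron and haem handling were listed, 48 were in the files (Flvcr1 was not matched) and 37 were tested. In FPKM 1 of the 37 passed higher and 0 passed lower, beside 0.308% and 0.0577% of all tested genes. The groups did not overlap for 5 genes higher and 2 lower, beside 9.04% and 6.89% of all tested genes, and the median log2 difference was -0.00023. In scaled fragments 2 passed higher (Hp and Alas1) and 0 lower, beside 1.65% and 0.866% of all tested genes. The other 11 genes in the files fell under the filter, and Ftmt (mitochondrial ferritin), Tfr2, Hamp (hepcidin), Bmp6, Hfe2 and Hpx were listed at 0 in all 6 libraries.

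Hp, haptoglobin, which binds free haemoglobin, was the gene that passed. It rose from 27.4, 28.2 and 15.5 FPKM in control to 162, 172 and 122 FPKM in stimulated BMMs. The log2 difference was 2.71 (SE 0.25, limma, adjusted p = 0.00411). The call was lost without stimulated 1 (log2 2.66, adjusted p = 0.0539) and with plain moderation of variances (adjusted p = 0.0700), and it was kept in scaled fragments (adjusted p = 3.66e-09) and with any 1 library left out of those. On scaled fragments of lines with the symbol it was lost (limma, adjusted p = 0.0568), although the log2 difference of 2.68 was the same as over all lines. Hp is also on the study's own list of changed genes, as are Alas1 and Slc25a37, the mitochondrial iron importer (Slc25a37 log2 difference 0.45, SE 0.26, adjusted p = 0.653).

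Of the other haem genes, Blvrb, biliverdin reductase B, had 508 to 535 FPKM in control and 599.8 to 663 FPKM in stimulated BMMs (log2 0.28, SE 0.06, limma, adjusted p = 0.126). Slc48a1, which carries haem out of the phagolysosome, had 189 to 209.6 and 211 to 226 FPKM (log2 0.13, adjusted p = 0.667). Lrp1, the receptor for haem bound to haemopexin, was the abundant gene on the lower side, with 235 to 239 and 202 to 233 FPKM (log2 -0.13, adjusted p = 0.667). The other gene on that side was Abcg2, an exporter of haem and porphyrins, with 5.69 to 7.13 and 1.84 to 4.43 FPKM (log2 -0.92, SE 0.38, adjusted p = 0.524), named after its values were seen. Abcg2 rests on only 32.3 estimated fragments over all control libraries and 17.1 over all stimulated libraries, so its counting error is large. In scaled fragments none of these genes passed with all libraries (limma). The adjusted p was 0.0653 for Blvrb (log2 0.27), 0.554 for Slc48a1 (log2 0.12), 0.0660 for Lrp1 (log2 -0.15) and 0.404 for Abcg2 (log2 -0.88). Lrp1 passed in scaled fragments only without stimulated 3 (limma, adjusted p = 0.000341).

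Alas1, which starts haem synthesis, had 125 to 128 FPKM in control and 142 to 169.3 FPKM in stimulated BMMs (log2 0.31, SE 0.09, limma, adjusted p = 0.300). In scaled fragments it passed (log2 0.31, limma, adjusted p = 0.0323). On scaled fragments of lines with the symbol the call was lost (limma, adjusted p = 0.496), although the log2 difference was the same. Over all lines, leaving out control 1, control 2, control 3, stimulated 1 or stimulated 2 also ended the call each time (limma, adjusted p = 0.0553 to 0.268). Alas1 too stands on the study's list, so this is not independent evidence of its direction. Lcn2, lipocalin 2, which takes iron-laden siderophores from bacteria, had 35.3 to 48.2 and 52.1 to 62.7 FPKM (log2 0.51, SE 0.16, adjusted p = 0.368). It rests on 58.2 estimated fragments over all control libraries and 78.2 over all stimulated libraries.

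In the remaining lists 0 genes passed, and in FPKM the groups of every gene tested overlapped. In scaled fragments the libraries of Nfe2l2 were separated upwards and those of Cisd1, a mitochondrial iron-sulfur protein named after its values were seen, downwards. Cisd1 rests on 63.4 estimated fragments over all control libraries and 53.2 over all stimulated libraries. The most abundant genes, 1 from each of these lists, were Trf, transferrin (187 ± 29.9 and 179 ± 13.9 FPKM in control and stimulated BMMs, adjusted p = 0.924), Nfe2l2, the regulator NRF2 (137 ± 8.04 and 147 ± 5.35 FPKM, adjusted p = 0.784), Pcbp1, a chaperone that hands iron to ferritin (129 ± 4.98 and 124 ± 14.7 FPKM, adjusted p = 0.893), Iscu, the scaffold for iron-sulfur clusters (89.1 ± 12.1 and 117 ± 27.3 FPKM, adjusted p = 0.613), and Hfe (34.3 ± 4.54 and 38.97 ± 5.86 FPKM, adjusted p = 0.790; SD, n = 3 in each group, limma). The plot of the wider pathway sets these differences side by side.

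**Figure D4:**
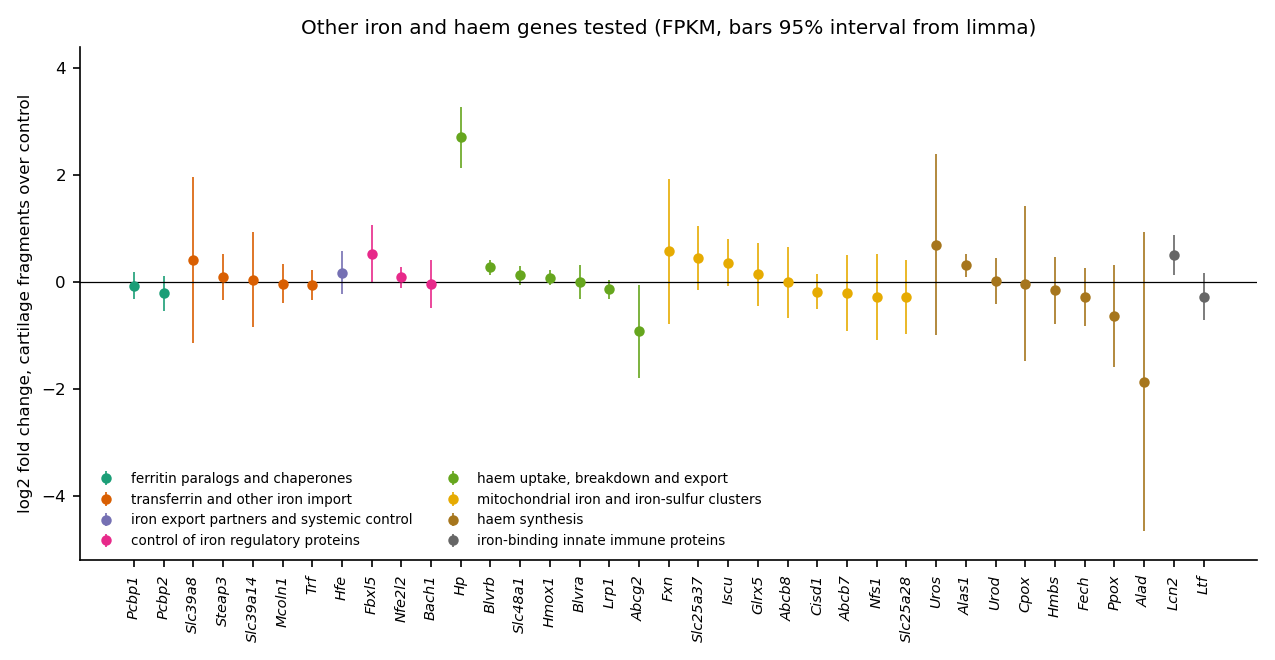
Log2 fold change of stimulated over control BMMs (y axis, FPKM with 0.1 added, 95% intervals from limma) for the 37 tested genes of iron and haem handling, coloured by list. Hp stands apart at 2.71, and most intervals of the other genes cross 0.

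The cultures were checked against marker genes of cells they could hold, with the FPKM of a list summed in each library. Macrophage markers were abundant, with sums of 29391 to 39122 in control and 29889 to 40183 in stimulated BMMs, and 1 of them passed (Adgre1, higher, also on the study's list). All 9 erythroid markers, globins and Alas2 among them, and all 5 lymphocyte markers were listed at 0 in every library. Neutrophil markers summed to 783 to 914 and 731 to 1075 FPKM, and chondrocyte markers to 1.54 to 4.22 and 1.18 to 2.82 FPKM, with Matn3 and Col9a1 at 0. Dendritic cell markers reached at most 1.55 FPKM. Fibroblast markers summed to 153 to 165 in control and 102 to 117 in stimulated BMMs. Osteoclast markers summed to 42.9 to 49.97 and 60.5 to 68.8, with Calcr at 0 in every library, so these sums rest on the other genes of that list. Of the fibroblast and osteoclast lists, 0 markers passed the threshold here. Col1a1 and Col1a2 of the fibroblast list are on the study's own list, as lower. Col1a1 had 74.4 to 87.4 FPKM in control and 43.6 to 50.7 in stimulated BMMs. Col1a2 had 71.8 to 86.4 and 56.4 to 62.6 FPKM. The fibroblast and osteoclast sums moved with the groups, as did Tfrc, Slc11a1 and the fragments of Fth1, and their part in those differences was not tested. In RNA from whole cultures, fewer cells of a type and less RNA per cell cannot be told apart.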

How the data were processed

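RNA-seq of 6 mouse BMM libraries (3 control, 3 stimulated) was used. For each library the authors used TopHat and Bowtie (mm10, paired reads of 100 bp) and then Cufflinks (versions not given in the sources used here). The deposited FPKM are Cufflinks values per transcript. The deposited coverage is a signal, the mean depth of each transcript. TMM is named in the Methods, and whether it touched these FPKM is not stated.

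FPKM were summed over all lines of a gene, that is, lines with its symbol and assembled lines of a locus with 1 symbol. Genes averaging 1 FPKM or more entered the test as log2(FPKM + 0.1) with limma 3.58.1 (R 4.3.3; trend, robust), two-sided, Benjamini-Hochberg over all genes, threshold 0.05. Fold changes are on that scale, which understates those of low genes. Fragments were estimated as coverage times effective length over read length, with the offset that made 93.8% to 94.7% of low values whole within 0.1, scaled to equal depth, with 0.5 added before log2. Floors and errors from fragments cover counting only. Starts were made 1-based.

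The genes and lists were chosen with earlier results of these data known. All 9 genes are named. Tests over them were never adjusted over the 9 alone. Of the wider pathway, genes that passed, genes with at least 5 FPKM whose groups did not overlap, and the most abundant gene of each list are named. For Fth1, Slc40a1 and Tfrc the 3 genes most alike are named. Protein sequences were not analysed here. The fit was tested on simulated fragments with a fixed spread. These held no assembled lines that come and go between libraries, so that source of spread was not covered. Python 3.11.15, pandas 2.3.3, numpy 2.4.6 and matplotlib 3.10.9 were used. The 18 alternatives changed the pseudocount, filter, scaling, moderation, replicate block, status, lines summed, unit or libraries. Fragments of symbol lines and fragments with a library left out were added after the values were seen.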

Additional observations from a re-analysis of the deposited data

How the results depend on the processing

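In the FPKM alternatives, leave-outs included, 0 of the 9 genes passed. In scaled fragments 2 passed (Fth1 0.14, Tfrc -0.46), and with 1 library left out 2 to 3 (Fth1 0.12 to 0.17, Tfrc -0.52 to -0.39, Ftl1 0.049 to 0.10, Slc40a1 -0.46 to -0.13); in FPKM the leave-outs ran from 0.056 to 0.39 for Fth1, up to 0.11 for Ftl1 and down to -0.47 for Slc40a1. On fragments of lines with the symbol 0 passed. Ncoa4, at 0.00, changed sign with equal totals (-0.034), size factors (-0.0094), quantiles (-0.053), lines with the symbol (-0.58 in FPKM, -0.58 in fragments) and leave-outs (-0.067 to 0.075 in FPKM, -0.060 to 0.070 in fragments). Slc11a2 did so on lines with the symbol (-0.19 in FPKM, -0.23 in fragments). The difference in the ratio of Slc11a1 to Slc11a2 was 0.54 on lines with the symbol, 0.43 on the most abundant transcript and -0.19 to 0.16 with a library left out, and that of Fth1 to Ftl1 was -0.0050 to 0.32. For Ireb2 to Aco1 it was 0.86 on lines with the symbol and 0.22 to 0.64 with a library left out. The status filter drops the coding transcript of Fth1 in every library except control 1, so its result for Fth1 is not given. The order of the 9 levels was the same in all 36 pairs by fragments per kilobase.

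Of all genes, 38 passed in FPKM (84.2% higher), 18 with plain moderation, 19 on lines with the symbol, 8 to 30 with a library left out, 261 in scaled fragments (65.5% higher; 156 to 218 with a library left out) and 14 in fragments of lines with the symbol. The wider pathway had 1 such gene, 0 with plain moderation or in fragments of lines with the symbol, 2 in scaled fragments, and 0 to 1 and 1 to 3 with a library left out. The cause of these shifts was not tested. With the replicate block 18 genes passed, 0 of the 9 among them. The replicate numbers recur in both groups with no stated pairing. Correlations of same-numbered libraries were -0.018, -0.0024 and 0.0099, and no library correlated best with its own number.

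Of the 9 genes, Slc11a2, Ireb2 and Aco1 rest on the fewest fragments, 36.3 to 76.6 a library. Their counting error is 12.1% to 14.8%, so a small difference was not detectable at this depth. In the wider pathway Abcg2, Cisd1 and Lcn2 rest on fewer fragments still.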
